A study of Mus musculus with 12 samples.

Results

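The replication-dependent histone genes encode the histones that package newly copied DNA, and they were followed here through mitosis and through a change of a single ribosomal protein residue in mouse lymphoma cells. They were taken as all genes of the GENCODE M21 annotation whose symbol starts with Hist1h, Hist2h, Hist3h or Hist4h, which gave 70 genes. Of these, 68 were found by gene identifier among the 51826 genes of the count tables. Hist1h2bm and Hist1h2bh were not matched and have no value here. The set holds 67 protein-coding genes and 3 pseudogenes, and by class it has 6 H1, 20 H2A, 19 H2B, 12 H3 and 13 H4 genes.

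The RNA was from 19DN cells, which lack the reporter and descend from 19PP, a B cell lymphoma line of the mouse that arose in Rag2-/-γC-/- hosts given Cγ1-Cre bone marrow carrying Myc and P110* alleles that Cre switches on by removing a stop cassette. All groups share this origin and its alleles. The cells carried RPL12, a protein of the large ribosomal subunit, with serine 38 replaced by aspartate (S38D) or by alanine (S38A), or the wild-type protein (WT). Each line was sampled as mitotic cells, collected 10 min after release from 8 h in nocodazole (100 ng/mL), and as asynchronous culture, so that there were 6 groups of 2 libraries. Cycloheximide, an inhibitor of elongating ribosomes, was present at harvest in every group (100 µg/mL), and RNA was taken from cleared polysome lysates. Only mitotic cells had nocodazole, so the cell cycle state and the drug cannot be told apart. The labels do not say whether the libraries of a group came from separate cultures, so p-values measure only the spread between these libraries, which may be technical, and reads near the 3′ end do not read codon 38 and so do not check the line.

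Messenger RNAs of these genes are the only abundant messenger RNAs of animal cells that carry no poly(A) tail. The transcript is cut a few bases after a short hairpin, the stem-loop, by a complex that uses the U7 small nuclear RNA, and the stem-loop binding protein SLBP then carries the message through export, translation and decay. The genes are transcribed in S phase and their stem-loop messages are destroyed when replication ends, while some genes can also read on to a downstream poly(A) signal and make polyadenylated messages. The libraries measured here were primed on poly(A) tails with oligo(dT) and sequenced near the 3′ end, so they count only the RNA that carries a tail or an internal run of A. In such data fewer cells with a transcript and less transcript per cell cannot be told apart.

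The 3′ ends are shown first, because the reads depend on them. A complete stem-loop, defined as a 16-base hairpin of 6 Watson-Crick pairs in the first 100 bases after the stop codon, was found in 46 of the 67 coding members. The sequence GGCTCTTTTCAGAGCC was the most frequent, in 26 of them, and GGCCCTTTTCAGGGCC stood in 7. Below, the hairpin is in capitals within its flanking bases, 5′ to 3′, as read from GENCODE M21 transcripts on GRCm38.
Hist1h4i (chr13:22040961-22040986, minus strand): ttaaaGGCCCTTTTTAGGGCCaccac
Hist2h4 (chr3:96262934-96262959, minus strand): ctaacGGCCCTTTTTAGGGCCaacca
Hist4h4 (chr6:136803993-136804018, minus strand): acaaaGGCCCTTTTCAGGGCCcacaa
Hist1h4b (chr13:23757361-23757386, plus strand): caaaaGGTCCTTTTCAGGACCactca
Hist1h1c (chr13:23739507-23739532, plus strand): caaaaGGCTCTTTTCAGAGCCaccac
Hist3h2a (chr11:58955167-58955192, plus strand): ccaaaGGCTCTTTTCAGAGCCaccca
Hist2h3c2 (chr3:96238480-96238505, minus strand): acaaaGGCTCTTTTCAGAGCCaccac
Hist1h4i and Hist2h4 were the only members with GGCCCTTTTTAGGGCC.

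RefSeq and GENCODE drew the 3′ ends of these genes differently. Of 45 members with a stem-loop and a RefSeq record (GRCm38.p6), 42 had a RefSeq end within 20 bases of the hairpin, while 2 had a GENCODE end that close and 23 had a GENCODE end more than 100 bases beyond it. The RefSeq gene of Hist1h4i stopped 6 bases after the hairpin and its GENCODE transcript ran on for 330 bases. For Hist1h1c these distances were 4 and 840 bases, and for Hist3h2a 5 and 1643 bases. Several of the longer transcripts ended on a poly(A) signal, AATAAA or ATTAAA, which is in capitals in the last bases of the transcripts below.
Hist1h4i (chr13:22040636-22040658, minus strand): acATTAAAagtattctatgctaa
Hist1h1c (chr13:23740340-23740367, plus strand): ctAATAAAaagcgtttagttttcattca
Hist2h2be (chr3:96223715-96223738, plus strand): ttAATAAAgttaccgattagtttc
Hist2h4 (chr3:96261687-96261716, minus strand): aaAATAAAatcttaaaaacaacaaaaagaa
Hist4h4 (chr6:136801553-136801563, minus strand): gaAATAAAtac
Hist1h2bc had another structure: its first exon (chr13:23684199-23684621) ended 9 bases after the stop codon and was spliced over an intron of 7554 bases to exon 2 (chr13:23692176-23692908), so that its annotated transcript held no stem-loop.

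Reads were found for 57 of the 68 matched members, and 31 had reads in every library. The members held 93317 of 64425668 gene reads (0.145%) over the 12 libraries, and Hist1h2bc (31851 reads), Hist1h4i (29684 reads), Hist1h1c (15707 reads) and Hist2h2be (6791 reads) made up 90.1% of them. Hist3h2a had 2405 reads and Hist1h1e 1573 reads. The 11 members with no read were Hist1h4m, Hist1h2ap, Hist1h2aj, Hist2h2aa1, Hist2h2aa2, Hist2h3c1, Hist1h2br, Hist1h2bq, Hist1h2ao, Hist3h2bb-ps and Hist1h2ba. By class, H2B genes held 42.0% of member reads, H4 33.4%, H1 19.8%, H2A 3.55% and H3 1.18%. Reads of a 3′ library are not divided by transcript length, and these totals compare only the tailed RNA of the genes.

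The length of the annotated 3′ untranslated region went with the reads. The 27 coding members with at least 150 annotated bases after the stop codon held 96.7% of member reads, with a median of 83 reads per gene, and all 6 members with at least 1000 reads were among them. The 38 coding members with a shorter region held 3.32%, with a median of 17 reads. The limit of 150 bases was chosen after these values were seen. A poly(A) signal in the last 50 bases stood in 16 of the 27 longer genes, which held 55767 reads with a median of 97.5 per gene. The 11 without it, Hist1h1e included, held 34448 reads with a median of 57. Most of these 34448 reads were from 1 gene, the spliced Hist1h2bc (31851 reads). Near-identical copies touch the same measure. In 37 members at least 50% of the 51-base stretches of the last 500 transcript bases also occurred in other genes, and they held 1220 reads, against 92097 reads in the 31 members below that share. How reads with several matches were treated is not given in the sources used here.

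**Figure D1:**
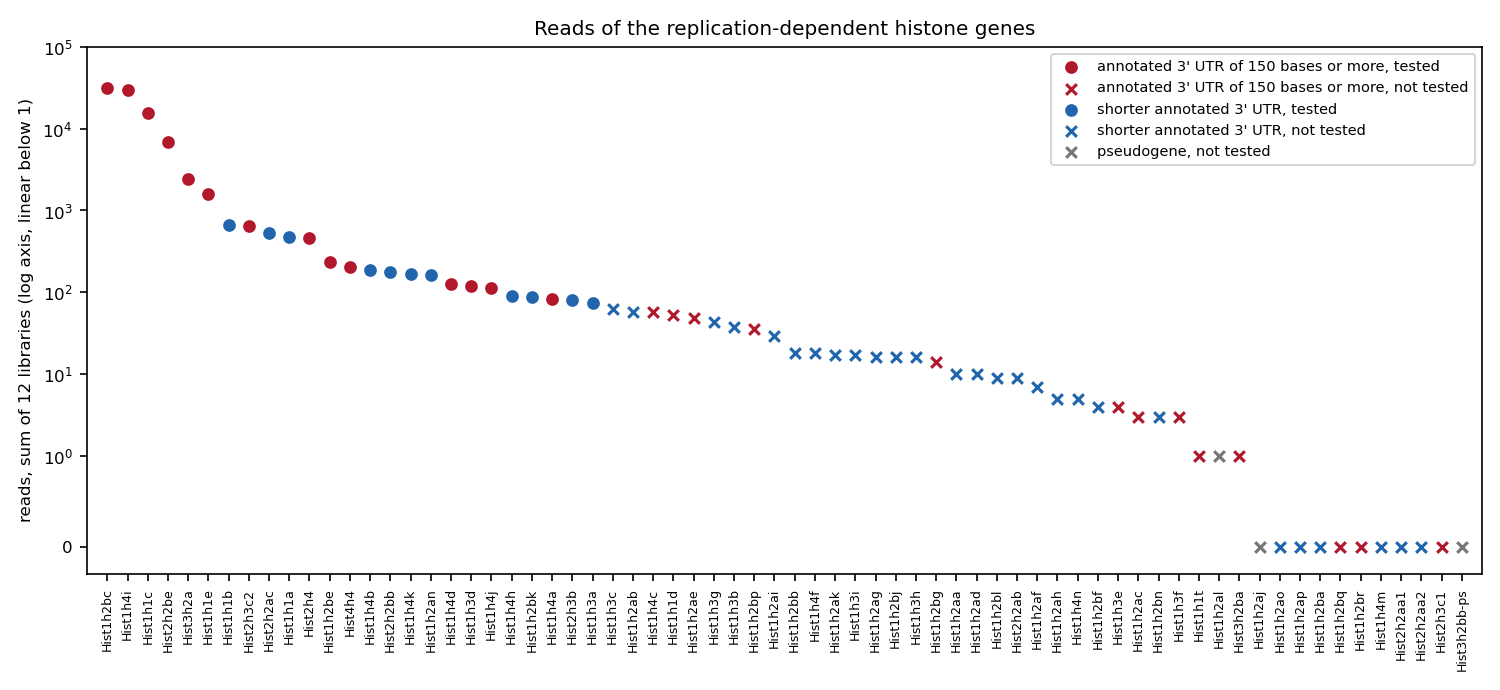
Reads of each of the 68 matched members, summed over 12 libraries (vertical axis, log scale, linear below 1). Red marks an annotated 3′ untranslated region of 150 bases or more, blue a shorter one and grey a pseudogene, circles are the 25 members tested and crosses those not tested, and the 6 members above 1000 reads are all red.

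The filter on low counts left 25 members: 4 H1, 3 H2A, 5 H2B, 4 H3 and 9 H4 genes. It asked for a minimum of 10 reads, scaled to library size, in at least 2 libraries, the size of a group, which need not be of the same group. A member that reaches the filter through the group where it is high had a better chance to be tested, so counts over the 25 do not describe all 70. The 32 members with reads that were not tested had 1 to 63 reads in all. Of these, Hist1h3c had 63, Hist1h2ab 57, Hist1h4c 57, Hist1h1d 52, Hist1h2ae 48, Hist1h3g 43, Hist1h3b 38, Hist1h2bp 36 and Hist1h2ai 29 reads over 12 libraries, and the other 23 had 1 to 19. Fitted without the filter, edgeR called 0 of these 32 in any of the 13 comparisons (lowest adjusted p 0.1), and 8 had an unadjusted p under 0.05 in at least 1 of them. DESeq2 was not run without the filter.

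The libraries held 3432875 to 6587997 gene reads, and spike-in RNA was 2.29% to 3.60% as many reads as the genes. Of 8 B cell markers, 7 had reads in all 12 libraries, up to 1420 CPM for Ms4a1, and Blk had 19 reads in 6 libraries. CPM are counts per 1000000 reads, scaled with TMM factors. Of 15 markers of T and NK, myeloid, stromal, epithelial and erythroid cells, 8 had no read, Cd3e, Cd4, Cd8a, Cd14, Itgam and Hba-a1 among them, and their summed level was 2.83 to 7.55 CPM, mostly Epcam and Csf1r. Scaling by spike-ins in place of TMM moved the median of all genes by -0.18 (log2) for mitotic over asynchronous cells as a mean of the lines, by -0.44 in WT and by -0.11 in S38D, and by -0.45 and -0.38 for asynchronous S38A and S38D over WT. It moved the median of the mitotic change by 0.46 in S38A minus WT, by 0.33 in S38D minus WT and by -0.13 in S38D minus S38A. Median shifts of the remaining 5 comparisons were under 0.1 in size, and changes are given relative to the TMM scale. An earlier analysis of these data had set replicate 1 of asynchronous S38D and replicate 1 of mitotic WT far from their partners, so the counts were also made without both.

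Summed over all members, mitotic libraries held more histone reads than asynchronous libraries. Sums are in RPM, reads per 1000000 gene reads of a library. Mitotic libraries had 2510 and 2620 member RPM in S38D, 1690 and 1840 in S38A and 1720 and 1950 in WT. Asynchronous libraries had 995 and 1100 in S38D, 656 and 645 in S38A and 974 and 1020 in WT. The lowest mitotic library lay above the highest asynchronous library, and asynchronous S38A was the lowest group. The log2 ratio was 1.20 as a mean of the lines, 1.29 in S38D, 1.44 in S38A and 0.88 in WT. Taken per spike-in read, the mean ratio was 1.01 and the WT ratio 0.47. The sum was not tested, since 4 genes carry it.

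The difference in the sum lay in the members with the longer 3′ untranslated region. All members with the longer region together had a median of 1850 RPM over the 6 mitotic libraries (1650 to 2570), against 931 over the 6 asynchronous libraries (612 to 1050). The shorter ones had a median of 49.4 (42.7 to 57.7) in mitotic libraries, against 44.1 (32.9 to 71.1) in asynchronous libraries. Mitotic and asynchronous libraries overlapped for the shorter genes, and their highest value, 71.1, was in replicate 1 of asynchronous S38D. Leaving out the 4 genes with most reads, the remaining members had 143 to 187 RPM in mitotic libraries and 102 to 173 in asynchronous libraries, which overlapped.

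**Figure D2:**
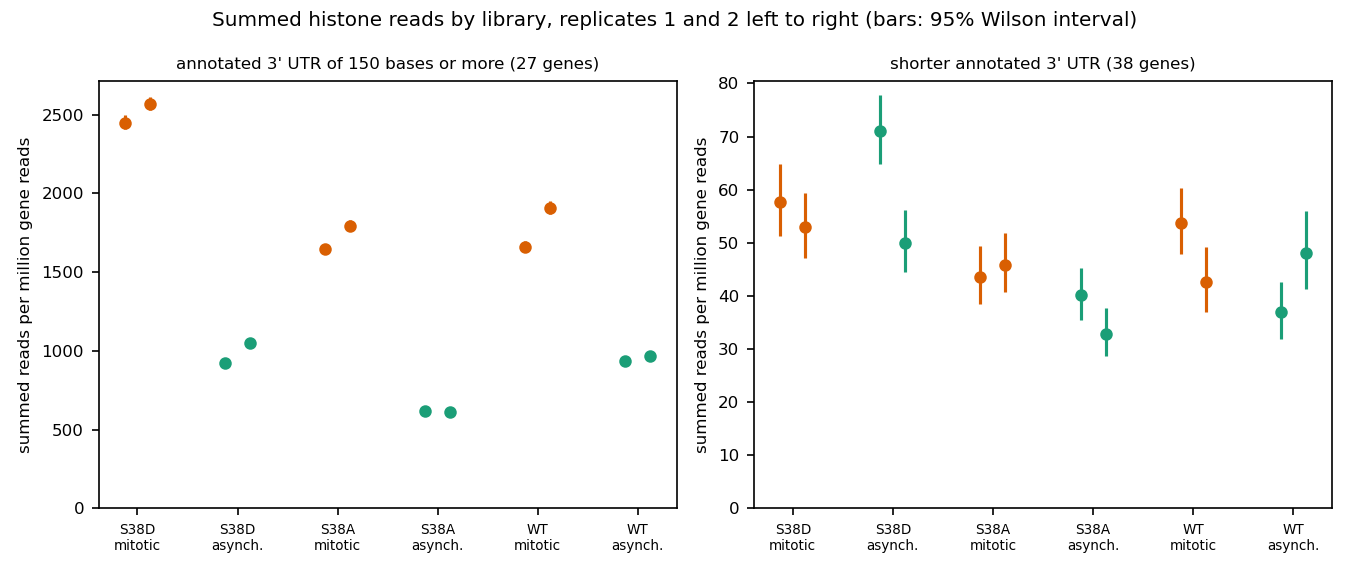
Summed RPM in each library, for the 27 members with an annotated 3′ untranslated region of 150 bases or more (left panel) and the 38 with a shorter one (right panel), mitotic in orange and asynchronous in green, with 95% Wilson intervals that cover counting error only. In the left panel, which holds the 4 members with most reads, every orange point (1650 to 2570) lies above every green point (612 to 1050). In the right panel the colours overlap.

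In the comparison of mitotic with asynchronous cells as a mean of the 3 lines, 10 of the 25 tested members were called by edgeR's quasi-likelihood test with Benjamini-Hochberg adjustment over 10477 genes, at an adjusted p under 0.05. Of these, 9 were higher in mitotic cells and Hist1h1b was lower. Hist1h4h and Hist1h3d, among the 9, reached the filter only with their mitotic libraries, so the filter favoured a rise in them. Over all genes tested, 42.1% were called, 20.5% higher and 21.6% lower. The median log2 fold change was 0.49 over the members and -0.02 over all genes, and 20 of the 25 members had a positive value. Within the lines, called members numbered 8 of 25 in S38D (7 higher and 1 lower, where 26.4% of all genes were called), 5 of 25 in S38A, all higher (14.8%), and 7 of 25 in WT, all higher (26.0%). Over all genes, 11.6% were higher and 14.8% lower in S38D, 6.72% higher and 8.06% lower in S38A, and 13.4% higher and 12.7% lower in WT. In 4 members, Hist1h4i, Hist1h1c, Hist1h2bc and Hist2h2be, all 6 mitotic libraries lay above all 6 asynchronous libraries, as in 5.79% of all genes tested, and 4.84% of all genes had every mitotic library below. Without the pair of libraries named above, the mean comparison called 9 members, all higher and 8 of them shared, and the calls of Hist1h1b and Hist1h4h were lost.

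Among the H4 genes, 3 of 9 tested members were called higher in mitotic cells: Hist1h4i, Hist2h4 and Hist1h4h. Hist1h4h passed the filter only through mitotic libraries, so the filter favoured a rise in this gene. Over all genes 20.5% were higher, and a class of so few genes cannot be set apart from that share. Hist1h4i (chr13:22040636-22041362, minus strand) had 868 and 870 CPM in mitotic S38D libraries against 271 and 267 CPM in asynchronous S38D libraries. It had 706 and 741 CPM in mitotic against 153 and 161 CPM in asynchronous S38A libraries, and 604 and 595 CPM in mitotic against 165 and 188 CPM in asynchronous WT libraries. No mitotic library overlapped an asynchronous library. The log2 fold change was 1.89 ± 0.060 (SE; adjusted p 2.72e-12, edgeR) as a mean of the lines, with 1.69 in S38D, 2.20 in S38A and 1.77 in WT, and it stayed called under all 19 alternatives (1.71 to 1.92).

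Hist2h4, which shares the stem-loop of Hist1h4i, was present at a much lower level. It had 14.8 and 12.8 CPM in mitotic against 5.56 and 2.47 CPM in asynchronous S38D libraries, 5.78 and 4.96 CPM in mitotic against 2.36 and 2.58 CPM in asynchronous S38A libraries, and 16 and 10.5 CPM in mitotic against 5.47 and 5.09 CPM in asynchronous WT libraries. Within each line the mitotic libraries were above the asynchronous ones, although mitotic S38A was close to the higher asynchronous values of the other lines, and its lower library overlapped them. The log2 fold change was 1.40 ± 0.20 (SE; adjusted p 3.42e-05, edgeR). Hist1h4h had 90 reads in all and 0.438 to 2.89 CPM in mitotic against 0.353 to 1.75 CPM in asynchronous libraries, which overlapped. Its log2 fold change of 1.15 ± 0.41 (SE; adjusted p 0.0331, edgeR) lost its call under 13 of 18 alternatives, and 45.7% of its 51-base stretches occur in other genes. The other 6 H4 genes were not called, among them Hist4h4 (log2 fold change 0.52, adjusted p 0.116 in edgeR) and Hist1h4b (0.40, adjusted p 0.327).

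Linker histones, the H1 proteins that bind DNA between nucleosomes, split by gene. Hist1h1c (chr13:23738808-23740367, plus strand), which encodes H1.2, had 504 and 517 CPM in mitotic against 184 and 182 CPM in asynchronous S38D libraries. In S38A it had 252 and 275 CPM in mitotic against 68.9 and 75.6 CPM in asynchronous libraries, and in WT 280 and 301 CPM in mitotic against 170 and 188 CPM in asynchronous libraries. All 6 mitotic libraries lay above the asynchronous ones, and asynchronous S38A was far below the other groups. Its log2 fold change was 1.35 ± 0.062 (SE; adjusted p 1.74e-10, edgeR) as a mean of the lines, called under all 19 alternatives (1.17 to 1.38). In WT it was 0.70, and scaling by spike-ins gave 0.25 there with an adjusted p of 0.217.

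Hist1h1b (chr13:21779883-21780625, minus strand), which encodes H1.5, was the only called member that fell. It had 6.79 and 7.60 CPM in mitotic against 18.3 and 10.8 CPM in asynchronous S38D libraries, 8.12 and 12.0 CPM in mitotic against 15.6 and 10.5 CPM in asynchronous S38A libraries, and 7.54 and 7.23 CPM in mitotic against 6.44 and 8.49 CPM in asynchronous WT libraries. Groups were apart in S38D and overlapped in S38A and WT. The log2 fold change was -0.46 ± 0.18 (SE; adjusted p 0.0472, edgeR), and the call was lost under 12 of 19 alternatives. Its annotation in GENCODE M21 ends at the stop codon. Hist1h1e, encoding H1.4, had 27.8 and 24.8 CPM in mitotic against 37.7 and 19.2 CPM in asynchronous S38D libraries, 26.4 and 22.8 CPM in mitotic against 28.5 and 19.3 CPM in asynchronous S38A libraries, and 27.9 and 15.6 CPM in mitotic against 18.4 and 20.9 CPM in asynchronous WT libraries. The groups overlapped in every line. Its log2 fold change was 0.03 ± 0.21 (SE; adjusted p 0.932, edgeR), and its exons overlap Hist1h2be and Gm11398 on the same strand. The testis gene Hist1h1t had 1 read, and Hist1h1a and Hist1h1d were not called or not tested.

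In the H2B class, 2 of 5 tested members rose, where 20.5% of all genes were higher, and these were the H2B genes with most reads. Hist1h2bc had 782 and 906 CPM in mitotic against 342 and 449 CPM in asynchronous S38D libraries, 497 and 549 CPM in mitotic against 277 and 274 CPM in asynchronous S38A libraries, and 508 and 678 CPM in mitotic against 389 and 383 CPM in asynchronous WT libraries. All mitotic libraries were above all asynchronous ones. On the log2 scale it rose by 0.88 ± 0.085 (SE; adjusted p 8.9e-07, edgeR). Hist2h2be (chr3:96221119-96223738, plus strand) had 155 and 145 CPM in mitotic against 56.4 and 79.6 CPM in asynchronous S38D libraries, 115 and 108 CPM in mitotic against 50.2 and 55.1 CPM in asynchronous S38A libraries, and 153 and 179 CPM in mitotic against 104 and 108 CPM in asynchronous WT libraries. The lowest mitotic value, in S38A, equalled the highest asynchronous value, in WT, to 3 digits, and lay above it before rounding. The log2 fold change was 0.96 ± 0.085 (SE; adjusted p 2.73e-07, edgeR). With spike-in scaling the WT values were no longer called: Hist1h2bc had 0.18 (adjusted p 0.504) and Hist2h2be 0.20 (adjusted p 0.481), against 0.62 and 0.65 with TMM scaling.

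H2A genes gave few reads, and Hist3h2a (chr11:58954685-58956830, plus strand) was the tested H2A gene that rose. It had 49.2 and 44.5 CPM in mitotic against 34.6 and 31.4 CPM in asynchronous S38D libraries, 51.4 and 53.8 CPM in mitotic against 37.3 and 34.3 CPM in asynchronous S38A libraries, and 33.4 and 25.6 CPM in mitotic against 23.2 and 24.3 CPM in asynchronous WT libraries. Within each line the mitotic libraries were higher, but both mitotic WT libraries lay below the highest asynchronous libraries of the mutant lines. On the log2 scale it rose by 0.46 ± 0.090 (SE; adjusted p 6.94e-04, edgeR). Exons of Trim17 on the same strand and of Gm44313 on the opposite strand overlap it. Hist2h2ac and Hist1h2an were not called, with log2 fold changes of 0.25 and -0.03.

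Among 4 tested H3 genes, Hist2h3c2 and Hist1h3d rose, where 20.5% of all genes were higher. Hist1h3d reached the filter only with its mitotic libraries, so the filter favoured a rise in this gene. Hist2h3c2 (chr3:96238108-96239127, minus strand) had 13.0 and 15.0 CPM in mitotic against 8.90 and 3.88 CPM in asynchronous S38D libraries, 6.5 and 9.20 CPM in mitotic against 7.71 and 6.37 CPM in asynchronous S38A libraries, and 16.6 and 20.6 CPM in mitotic against 7.81 and 7.92 CPM in asynchronous WT libraries. Groups were apart in S38D and WT and overlapped in S38A. It rose by a log2 fold change of 0.84 ± 0.18 (SE; adjusted p 0.00137, edgeR). Hist1h3d had 118 reads in all, with 1.24 to 3.29 CPM in mitotic against 0.283 to 2.86 CPM in asynchronous libraries, which overlapped. Its log2 fold change was 1.21 ± 0.34 (SE; adjusted p 0.00922, edgeR), and DESeq2 gave an adjusted p of 0.0740.

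**Figure D3:**
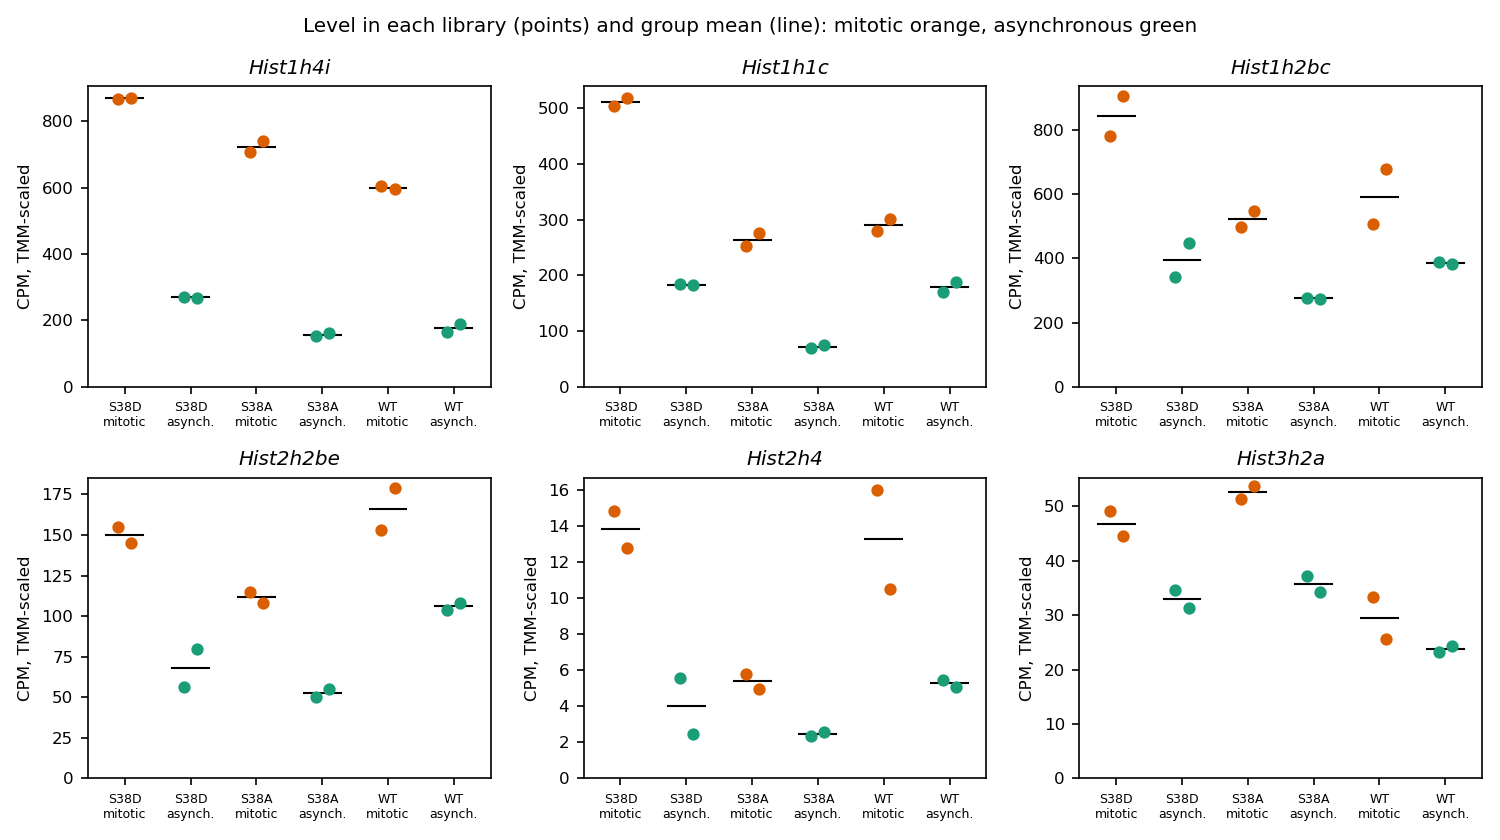
Level in each library (CPM, TMM-scaled; linear axis from 0) of the 6 members Hist1h4i, Hist1h1c, Hist1h2bc, Hist2h2be, Hist2h4 and Hist3h2a, mitotic in orange left of asynchronous in green within each line, with lines at the group means. Hist1h4i lies at 595 to 870 CPM in mitotic libraries and at 153 to 271 CPM in asynchronous libraries, and Hist1h1c is lowest in asynchronous S38A (68.9 and 75.6 CPM).

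By the annotated 3′ end, 8 of the 14 tested members with the longer untranslated region were called, all higher in mitotic cells, with a median log2 fold change of 0.68. Of the 11 with a shorter region, Hist1h4h was higher, Hist1h1b was lower, and the median was 0.25. Hist1h3d among the longer and Hist1h4h among the shorter genes reached the filter only with their mitotic libraries. The share called over all genes was 42.1%, with 20.5% higher and 21.6% lower. The limit between longer and shorter regions was chosen after the reads per gene were seen. Since the longer genes also have more reads, their fold changes are measured with smaller errors, and the difference between the 2 kinds of gene was not tested.

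**Figure D4:**
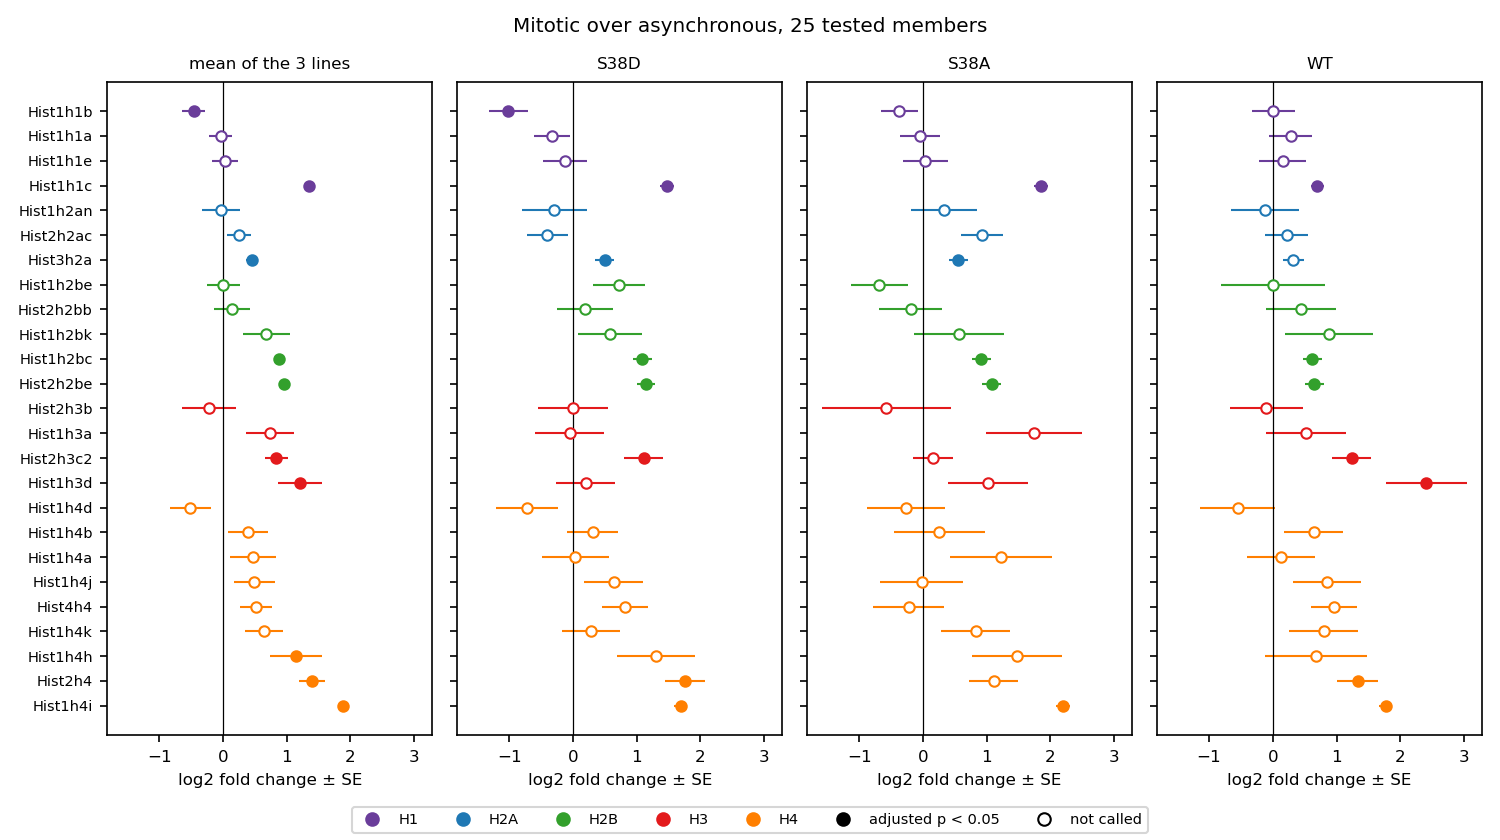
Log2 fold change of mitotic over asynchronous cells with its SE for the 25 tested members, as a mean of the lines and in S38D, S38A and WT, coloured by histone class, with filled points at an adjusted p under 0.05. Hist1h4i is at 1.89 in the mean and filled in every panel, as are Hist1h1c, Hist1h2bc and Hist2h2be, while most H2A, H3 and H4 genes have SE bars that reach or approach 0.

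The size of the mitotic change differed between lines for a single member. In Hist1h1c the mitotic change was 1.48 in S38D, 1.86 in S38A and 0.70 in WT on the log2 scale. The difference of S38A minus WT was 1.16 ± 0.15 (SE; adjusted p 0.00206, edgeR), and that of S38D minus WT was 0.78 ± 0.15 (SE; adjusted p 0.0360, edgeR). Over all genes, 0.993% were called for S38A minus WT (0.496% higher and 0.496% lower) and 0.401% for S38D minus WT (0.143% higher and 0.258% lower). For S38D minus S38A edgeR called 0 of 25 members and DESeq2 called 0, with 5 at an unadjusted p under 0.05 and 0.0382% of all genes called (0.00954% higher and 0.0286% lower). The Hist1h1c difference there was -0.38 ± 0.15 (SE; adjusted p 0.506, edgeR). The S38A difference lost its call without replicate 1 of asynchronous S38A (adjusted p 0.0669). The S38D difference lost its call under 12 of 20 alternatives, with adjusted p up to 0.232, while leaving out replicate 2 of asynchronous S38D raised that count from 1 to 6 members. For Hist1h4i the changes in the lines did not pass the test of their difference, with 0.43 for S38A minus WT (adjusted p 0.134, edgeR).

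Mutant lines were then set against WT within each state. In S38A the called members mostly fell. In mitotic cells 7 of 25 were called against WT, 1 higher and 6 lower, where 17.0% of all genes were called, 8.31% higher and 8.72% lower. In asynchronous cells 7 of 25 were called, again 1 higher and 6 lower, where 21.2% of all genes were called, 11.7% higher and 9.54% lower. Member medians were -0.38 in mitotic and -0.49 in asynchronous cells, against 0.03 and -0.02 over all genes. These comparisons share no library with each other, but each shares its WT libraries with the S38D comparison of the same state. Called members in mitotic cells were Hist4h4, Hist1h4b, Hist2h4, Hist2h3b, Hist2h3c2 and Hist2h2be, all lower, and Hist3h2a, higher. In asynchronous cells they were Hist1h1c, Hist1h4a, Hist1h4b, Hist4h4, Hist2h2be and Hist1h2bc, all lower, and Hist3h2a, higher. Hist4h4, Hist1h4b, Hist2h3b and Hist1h4a were tested only because of their WT or S38D libraries, so these counts of lower members are no measure of the whole set.

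Low-level H4 and H3 genes had the largest estimated falls in S38A, with few reads and wide SE. Hist4h4, Hist1h4b, Hist2h3b and Hist1h4a passed the filter only through WT or S38D libraries, so the filter favoured falls in S38A. Hist4h4 (chr6:136801553-136804415, minus strand), a solitary H4 gene outside the large clusters, had 0.541 and 1.42 CPM in mitotic S38A libraries against 7.17 and 6.13 CPM in mitotic WT libraries. In asynchronous cells it had 1.26 and 1.03 CPM in S38A against 4.10 and 2.55 CPM in WT. The groups did not overlap in either state, but the share of all genes apart in this way, with 2 libraries per group, was not counted. The log2 fold change was -2.73 ± 0.43 (SE; adjusted p 3.81e-04, edgeR) in mitotic and -1.55 ± 0.46 (SE; adjusted p 0.0235, edgeR) in asynchronous cells, and the mitotic call held under all 19 alternatives while the asynchronous call was lost under 4 of 19. Hist1h4b (chr13:23757013-23757409, plus strand) had 0.541 and 1.24 CPM in mitotic S38A against 5.66 and 2.85 CPM in mitotic WT libraries, and 0.315 and 1.21 CPM in asynchronous S38A against 2.93 and 2.55 CPM in asynchronous WT libraries. Its log2 fold changes were -2.24 (adjusted p 0.00871, edgeR) in mitotic and -1.86 (adjusted p 0.0370, edgeR) in asynchronous cells, with calls lost under 4 and 6 of 19 alternatives. Other genes hold 54.5% of its 51-base stretches, and an exon on the opposite strand overlaps it.

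Hist2h4 and Hist2h3c2 also fell in mitotic S38A cells, by 1.31 and 1.24 on the log2 scale (adjusted p 0.00880 and 0.00876, edgeR). In asynchronous cells their values were -1.10 (adjusted p 0.0603, edgeR) and -0.16 (adjusted p 0.770, edgeR). Hist2h3b, an H3 gene with 80 reads in all, had 0.361 and 0.177 CPM in mitotic S38A against 1.89 and 1.31 CPM in mitotic WT libraries, with a log2 fold change of -2.49 ± 0.79 (SE; adjusted p 0.0409, edgeR). That call was lost under 9 of 18 alternatives, and 79.7% of its 51-base stretches occur in other genes. The fall of Hist1h4a in asynchronous S38A, -2.34 ± 0.72 (SE; adjusted p 0.0296, edgeR), rests on 83 reads over 12 libraries.

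Abundant members moved less and not all together in S38A. In asynchronous S38A cells Hist1h1c fell by 1.31 ± 0.11 (log2; SE, adjusted p 9.07e-07, edgeR), called under all 20 alternatives, and was at -0.14 (adjusted p 0.399, edgeR) in mitotic cells. Hist2h2be fell by 0.57 in mitotic and by 1.01 in asynchronous S38A cells (adjusted p 0.0119 and 2.13e-04, edgeR). Hist1h2bc fell in asynchronous S38A by 0.49 (adjusted p 0.0271, edgeR), lost under 7 of 20 alternatives. Hist1h4i was not called in S38A, with 0.27 (adjusted p 0.0748, edgeR) in mitotic and -0.16 (adjusted p 0.270, edgeR) in asynchronous cells. Hist3h2a rose by 0.83 ± 0.16 in mitotic S38A (SE; adjusted p 0.00159, edgeR), called under all 20 alternatives, and by 0.59 in asynchronous S38A (adjusted p 0.0154, edgeR), where spike-in scaling gave 0.13. Counts in S38A depended on the test: DESeq2 called 4 members in mitotic and 3 in asynchronous cells.

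In S38D fewer members differed from WT. In mitotic cells 3 of 25 were called, all higher, where 4.56% of all genes were called, 1.15% higher and 3.41% lower. These were Hist1h1c, with 504 and 517 CPM in mitotic S38D against 280 and 301 CPM in mitotic WT libraries, Hist1h4i, with 868 and 870 CPM against 604 and 595 CPM, and Hist3h2a, with 49.2 and 44.5 CPM against 33.4 and 25.6 CPM. None of the 3 overlapped between the lines, but the share of all genes apart in this way, with 2 libraries per group, was not counted. The log2 fold changes were 0.81 ± 0.11 for Hist1h1c (SE; adjusted p 1.65e-04, edgeR), 0.53 ± 0.10 for Hist1h4i (SE; adjusted p 0.00392, edgeR) and 0.66 ± 0.16 for Hist3h2a (SE; adjusted p 0.0211, edgeR). The Hist1h1c call held under all 20 alternatives, while those of Hist3h2a and Hist1h4i were lost under 6 and 3 of 20, both with spike-in scaling among them. In asynchronous cells 2 of 25 were called, where 8.99% of all genes were called, 4.87% higher and 4.12% lower: Hist1h4i was higher by 0.61 ± 0.10 (SE; adjusted p 0.00144, edgeR) and Hist2h2be lower by a log2 fold change of -0.64 ± 0.15 (SE; adjusted p 0.0139, edgeR). Spike-in scaling gave 0.22 for Hist1h4i there and ended its call. Without replicate 2 of asynchronous S38D the count was 8, and without replicate 1 of asynchronous WT edgeR called 0, where DESeq2 on all libraries called 2 and 6 had an unadjusted p under 0.05.

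S38D and S38A were also compared directly, and every called member was higher in S38D. In mitotic cells 8 of 25 members were called, where 17.7% of all genes were called, 7.51% higher and 10.2% lower: Hist1h1c, Hist1h2bc, Hist1h4b, Hist1h4j, Hist2h2be, Hist2h3b, Hist2h4 and Hist4h4. In asynchronous cells 4 of 25 were called, where 7.22% of all genes were called, 3.32% higher and 3.89% lower: Hist1h1c, Hist1h2bc, Hist1h4b and Hist1h4i. Member medians were 0.79 in mitotic and 0.84 in asynchronous cells, against -0.02 and 0.01 over all genes. Hist1h4b, Hist1h4j, Hist2h3b and Hist4h4 passed the filter only through WT or S38D libraries, so the filter favoured higher values in S38D for them. Hist4h4 had 4.73 and 5.06 CPM in mitotic S38D against 0.541 and 1.42 CPM in mitotic S38A libraries, a log2 fold change of 2.29 ± 0.44 (SE; adjusted p 0.00207, edgeR). Hist1h4b had 4.94 and 5.06 CPM in mitotic S38D against 0.541 and 1.24 CPM in mitotic S38A libraries, a log2 fold change of 2.46 ± 0.52 (SE; adjusted p 0.00422, edgeR). Hist1h1c was 0.96 ± 0.11 higher in mitotic (SE; adjusted p 2.21e-05, edgeR) and 1.34 ± 0.11 higher in asynchronous S38D cells. Of these, Hist2h2be lost its mitotic call under 10 of 20 alternatives and Hist1h2bc its asynchronous call under 13 of 20. Without that pair of libraries, 11 members were called in mitotic and 6 in asynchronous cells.

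**Figure D5:**
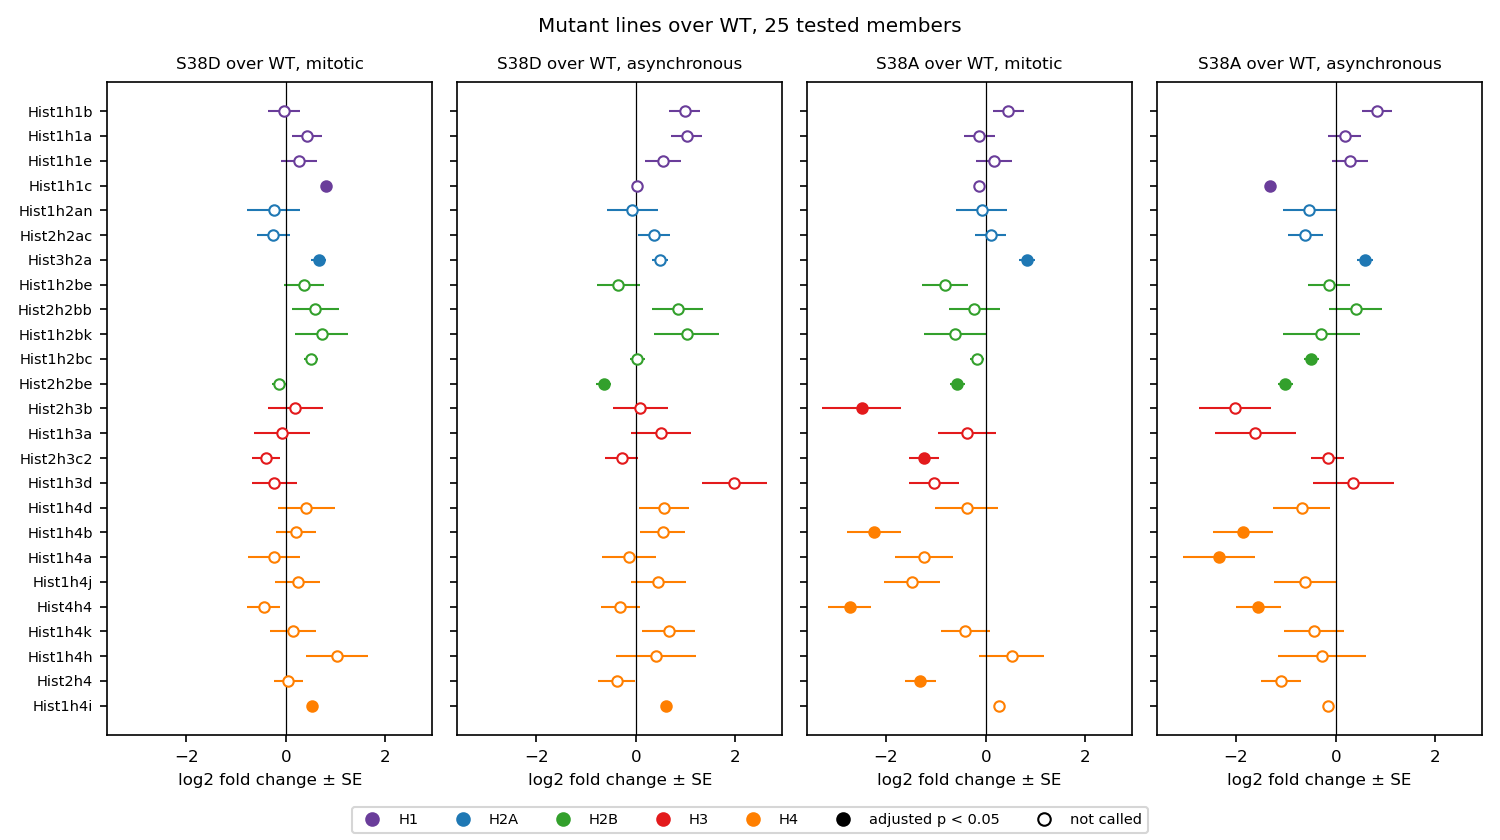
Log2 fold change with its SE of S38D over WT and of S38A over WT, in mitotic and asynchronous cells, for the 25 tested members coloured by histone class, with filled points at an adjusted p under 0.05. Filled points lie mostly left of 0 in the S38A panels, down to -2.73 for Hist4h4, and at 0.53 to 0.81 in the panel of mitotic S38D.

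The proteins that make, cut and read histone messages were described beside the genes, in the comparison of mitotic with asynchronous cells as a mean of the lines. Over all genes, 20.5% were higher and 21.6% lower in this comparison. Of 35 tested genes of histone mRNA processing, 12 were higher, 8 were lower and the median log2 fold change was 0.08, while spike-in scaling gave 2 higher, 11 lower and a median of -0.10. Slbp, encoding the stem-loop binding protein, had a mean of 14.3 ± 2.06 CPM over mitotic and of 10.3 ± 3.16 CPM over asynchronous libraries (SD, n = 6 each). These libraries span 3 lines, so the SD includes differences between lines. Group means were 15.6 CPM in mitotic against 12.5 CPM in asynchronous S38D, 15.6 against 11.6 CPM in S38A and 11.7 against 6.77 CPM in WT. The log2 fold change of Slbp was 0.52 ± 0.13 (SE; adjusted p 0.00444, edgeR) as a mean of the lines. The cleavage factor subunit Cpsf2 fell by 0.91, and the SLBP partner Mif4gd and the negative elongation factor subunit Nelfe fell by 0.49 each. The Sm protein gene Snrpe rose by 0.40 (log2), and all 4 were called. Spike-in scaling gave 0.34 for Slbp (adjusted p 0.0965, edgeR) and 0.21 for Snrpe (adjusted p 0.05, edgeR). Npat, the coactivator of histone transcription, was at -0.03 (adjusted p 0.910, edgeR).

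Of 18 genes of histone transcription and S phase entry, which share Npat with the processing list, 3 were higher and 6 lower in mitotic cells, with a median of -0.09, beside the same shares of 20.5% and 21.6% over all genes. Pou2af1 and Pou2f2, which act at the octamer element found in H2B promoters and in immunoglobulin genes, fell by 1.25 and 0.94. E2f2 fell by 0.72 and E2f3 rose by 0.74 on the log2 scale. Of 25 histone chaperones and importers, 2 were higher and 8 lower, with a median of -0.18, including the H2A.Z chaperone Anp32e (-0.91), the H3-H4 chaperone Asf1b (-0.58), the co-chaperone Dnajc9 (-0.29) and the importin Ipo4 (0.45, and 0.28 with spike-in scaling). Most replication-independent histone variants have ordinary poly(A) tails, while H2afx is known to make both a stem-loop and a polyadenylated message. Of 10 variants tested, 2 were higher, H1f0 (0.76) and H2afj (0.31), and 5 were lower, with a median of -0.28. Spike-in scaling gave 1 higher and 6 lower. H2afx fell to 195 ± 32.6 CPM in mitotic against 336 ± 45.9 CPM in asynchronous libraries (SD over the 3 lines, n = 6 each). Its log2 fold change was -0.80 ± 0.074 (SE; adjusted p 4.77e-07, edgeR), and H1fx, H2afv and H3f3b fell by 1.39, 0.61 and 0.35. B cell markers moved in the same comparison, with 6 of 7 tested lower and a median of -0.69, and their part in the histone values was not tested.

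Promoters of the members were read from RefSeq windows of 250 bases before to 50 after the start (GRCm38.p6). Of the 70 members, 69 matched a RefSeq gene and 61 had a promoter, in 62 windows. The TATA element was searched as TATAAA on either strand. The other motifs searched, also on either strand, were the CCAAT box and the octamer ATTTGCAT. The first stood in 56.5% of member windows and 13.6% of all 32851 windows, CCAAT in 85.5% and 37.4%, and ATTTGCAT in 22.6% and 1.74%. The classes differed: CCAAT was in 25.0% of H4 windows and in 100% of those of each other class, and the octamer was in 41.2% of H2A and 41.2% of H2B windows and in none of the H1, H3 and H4 windows. Below are the 120 bases before the start of 4 members that were described above, with CCAAT and octamer letters in capitals on either strand. No match says only that these letters are not in the window.
Hist1h4i (chr13:22041363-22041482, minus strand): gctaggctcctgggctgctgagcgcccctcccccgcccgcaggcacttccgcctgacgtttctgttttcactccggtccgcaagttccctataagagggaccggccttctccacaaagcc
Hist4h4 (chr6:136804432-136804551, minus strand): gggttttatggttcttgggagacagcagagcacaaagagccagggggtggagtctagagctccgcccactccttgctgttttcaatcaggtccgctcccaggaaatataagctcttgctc
Hist1h1c (chr13:23738687-23738806, plus strand): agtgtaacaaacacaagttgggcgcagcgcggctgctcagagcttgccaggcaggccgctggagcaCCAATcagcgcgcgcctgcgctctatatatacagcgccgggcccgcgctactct
Hist3h2a (chr11:58954565-58954684, plus strand): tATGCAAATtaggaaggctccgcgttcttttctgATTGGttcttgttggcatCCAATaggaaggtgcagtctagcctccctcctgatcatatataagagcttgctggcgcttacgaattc
Of the members that rose in mitotic cells, Hist1h4i and Hist1h4h had no CCAAT in the window, Hist1h1c, Hist3h2a, Hist2h3c2 and Hist1h3d had it, and only Hist3h2a of these had the octamer as well. Hist1h2bc, Hist2h2be and Hist2h4 had no promoter in the table.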

How the data were processed

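Per the labels' protocols, 1 µg of total RNA with ERCC spike-ins went into each QuantSeq 3′ FWD library, and reads were 51 nt long, 12 libraries to a lane. Deposited files hold raw counts, whole numbers of reads per gene for 51826 genes and 92 spike-ins, 1 file per library. Per the submitters' processing notes, bcl2fastq 2.16.0.10, cutadapt 1.12 and STAR 2.5.3a were used with build mm10. Not given in the sources used here were the counter, its strand setting, its rule for reads with several matches, or its annotation, so reads of overlapping genes on opposite strands could not be told apart.

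Identifiers were matched without version to GENCODE M21 (51633, 99.63%). Counts were filtered with filterByExpr by group (minimum count 10), which left 10477 genes, and scaled with TMM. The model, run under R 4.3.3 with edgeR 4.0.16, had 6 group means and 6 residual degrees of freedom. Robust quasi-likelihood F tests had p-values adjusted (Benjamini-Hochberg) across the whole table in each of 13 comparisons, and an adjusted p under 0.05 was called. SE came from the F statistic. The steps were tested on simulated data. Alternatives were DESeq2 1.42.0, its size factors in edgeR, spike-in scaling, no filter, a minimum count of 50, the compared groups alone, the replicate number as a block, each library left out, and 2 libraries that an earlier analysis had set apart left out together. Intervals are Wilson at 95% and cover counting error alone, because PCR copies of a molecule are counted as separate reads.

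The members, the gene lists, the comparisons and the library pair were chosen with earlier results of these data known. Named members are those called in the mean mitotic comparison or in at least 2 other comparisons, the 6 with the highest mean CPM, and untested members with at least 20 reads. From each list of other genes up to 4 called genes with the smallest adjusted p were named, beside Slbp. Npat, H1f0, H2afj, Hist1h4a, Hist1h4j, Hist2h2ac, Hist1h2an, Hist1h1a and Hist1h1t were added after their values were seen.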

Additional observations from a re-analysis of the deposited data

Results flagged for a closer look

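A single member had a mitotic change that differed between lines by a test of the difference itself. Hist1h1c, which encodes the linker histone H1.2, changed more in S38A than in WT, by 1.16 on the log2 scale (adjusted p 0.00206, edgeR's quasi-likelihood test with Benjamini-Hochberg adjustment). It also changed more in S38D than in WT, by 0.78 (adjusted p 0.0360, edgeR), a call lost under 12 of 20 alternatives, with adjusted p up to 0.232, where that for S38A was lost under 1 of 20. Its group means were 511 CPM in mitotic and 183 CPM in asynchronous S38D cells, 263 CPM in mitotic and 72.2 CPM in asynchronous S38A cells, and 290 CPM in mitotic and 179 CPM in asynchronous WT cells (n = 2 libraries each).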

How the results depend on the processing

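No call on a named member changed sign. The 63 calls were refitted 1233 times in all, of which 1051 kept the call and 182 lost it, and 25 of the 63 were kept under every alternative run for them. Losses were most frequent under DESeq2 (19), spike-in scaling (17) and without replicate 1 of asynchronous WT (16). The replicate number did not pair the samples, since of 15 correlations of replicate differences between groups (7057 genes, -0.403 to 0.787) 3 were above 0.1 and 3 below -0.1. The replicate block called 9 members in the mean mitotic comparison in place of 10, 7 in WT and 8 in S38D, and lost 1 call on a named member.

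Counts of called members moved by over 1.5 times as follows, and the cause was not tested. Spike-in scaling called 4 in WT for mitotic over asynchronous, 1 for S38D over WT in mitotic and 1 in asynchronous cells, 5 for S38D over S38A in mitotic cells, and 2 and 0 for the mitotic change in S38A minus WT and S38D minus WT. DESeq2 called 3 for S38A over WT in asynchronous cells and 4 in mitotic cells, and 5 for S38D over S38A in mitotic cells. A minimum count of 50, which tests fewer genes, called 4, 4 and 5 in these, and 2 for S38D over S38A in asynchronous cells. No filter called 7 for S38D over WT in asynchronous cells. The compared groups alone called 5 for the mitotic change of S38D, 0 for S38D over WT and 1 for S38D over S38A in asynchronous cells, and 2 and 0 for the mitotic change in S38A minus WT and S38D minus WT. That fit was not run for the mean of the lines, which uses all groups. Summed reads per spike-in read gave log2 ratios of 1.01 in the mean, 0.47 in WT and 1.15 in S38D.

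With libraries left out, counts ranged from 2 to 8 for the mitotic change in WT, 5 to 8 in S38D, 4 to 7 in S38A and 8 to 10 in the mean. They ranged from 2 to 10 for S38A over WT in asynchronous and 3 to 8 in mitotic cells, from 0 to 8 for S38D over WT in asynchronous and 1 to 4 in mitotic cells, and from 2 to 8 and 3 to 11 for S38D over S38A in asynchronous and mitotic cells. For the mitotic change they ranged from 0 to 3 in S38A minus WT, 0 to 6 in S38D minus WT and 0 to 2 in S38D minus S38A. A lone library left in a group was assumed to vary like the other groups. Of the members with reads, 32 stayed under the filter.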

Other observations

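Set against WT, asynchronous S38A cells had more of some genes around histone messages on the TMM scale, but for most of them this depended on the scaling. Of 35 tested processing genes 9 were called, all higher, of 25 chaperone genes 9 were higher and 1 lower, and of 18 transcription genes 7 were higher and 1 lower, where 11.7% of all genes were higher and 9.54% lower (edgeR's quasi-likelihood test with Benjamini-Hochberg adjustment). The list medians were 0.22, 0.32 and 0.19. Spike-in scaling turned these medians to -0.24, -0.13 and -0.27, with 3 processing genes higher and 3 lower, no chaperone gene higher and 6 lower, and 1 transcription gene higher and 1 lower. Slbp was at 0.76 (adjusted p 0.0337, edgeR) with TMM and at 0.33 (adjusted p 0.377) with spike-in scaling. In asynchronous S38D over WT it was at 0.87 (adjusted p 0.0338, edgeR) with TMM and at 0.52 (adjusted p 0.219) with spike-in scaling.

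The replication-independent linker histone gene H1fx was higher in S38A under both scalings. It had 5.55 ± 1.34 CPM in mitotic S38A against 0.846 ± 0.663 CPM in mitotic WT libraries, and 14.8 ± 3.70 CPM in asynchronous S38A against 2.75 ± 1.08 CPM in asynchronous WT libraries (SD, n = 2 each). The log2 fold change was 2.73 ± 0.50 (SE; adjusted p 0.00139, edgeR) in mitotic and 2.37 ± 0.37 (SE; adjusted p 2.98e-04, edgeR) in asynchronous cells, and with spike-in scaling 2.73 and 1.94 (adjusted p 0.00188 and 0.00146). Cpsf2, the cleavage factor gene, was also called higher in S38A with spike-in scaling, at 1.55 in mitotic and 0.67 in asynchronous cells.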
